A study of Arabidopsis thaliana with 12 samples.

Results

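Roots of *Arabidopsis thaliana* plants overexpressing the soybean gene *GmNTL4* (OX) were compared with wild-type (WT) roots, both under aluminium (Al), across all genes measured at a usable level. A gene was included when it had at least 0.5 FPKM (fragments per kilobase of gene length, scaled to library depth) in at least 3 of the 6 Al libraries, which held for 20115 of the 25872 genes in the whole table. The comparison rests on 3 WT Al and 3 OX Al libraries of the 12 in the series, and the other 6 are WT and OX roots without Al (control). All 6 Al libraries came from seedlings in nutrient solution at pH 4.5 without phosphate and with calcium chloride. The Al dose in the methods is 5 µM for 48 h, whereas the sample labels give 24 h. The transgene was driven by the constitutive 35S promoter, and OX plants were homozygous progeny of floral-dip transformants. The methods do not state which of the OX lines was sequenced, so an effect of the transgene and one of the line or its insertion site cannot be told apart. Ecotype and plant age are not in the labels, the *GmNTL4* transcript itself was not analysed here, and nothing states whether replicates were separate cultures, so that p-values measure only the spread between these samples, which may be technical.

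GmNTL4 belongs to the membrane-bound NAC transcription factors (NTLs). These proteins are anchored in a membrane by a helix at one end and are released under stress, after which the NAC domain enters the nucleus and binds DNA. In acid soil Al enters the root tip, binds the cell wall, stops cell expansion and raises reactive oxygen. Root responses known from Arabidopsis include release of organic acids, alteration of wall polymers, sequestration of Al, antioxidant defence and turnover of damaged components.

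Since NAC proteins are DNA-binding factors, the 200 bases in front of 4 genes described below are shown first, read from TAIR10.1 in the direction of the gene. *QQS* and *BGLU25* were called higher in OX roots, and *AATP1* and *HIPP21* were higher in every OX library without being called. Capitals mark CATGT on either strand (CATGT or ACATG), the core of a NAC recognition sequence known from a drought-induced gene, and the 2 forms share bases where they meet as ACATGT. The windows lie at chr3:12348847-12349046 (+ strand) for *QQS*, chr3:880788-880987 (+ strand) for *BGLU25*, chr5:16021917-16022116 (- strand) for *AATP1* and chr5:5755022-5755221 (+ strand) for *HIPP21*.
QQS: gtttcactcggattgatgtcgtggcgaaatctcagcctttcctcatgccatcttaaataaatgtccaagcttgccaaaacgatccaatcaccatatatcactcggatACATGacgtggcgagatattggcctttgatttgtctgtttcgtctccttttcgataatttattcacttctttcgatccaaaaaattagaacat
BGLU25: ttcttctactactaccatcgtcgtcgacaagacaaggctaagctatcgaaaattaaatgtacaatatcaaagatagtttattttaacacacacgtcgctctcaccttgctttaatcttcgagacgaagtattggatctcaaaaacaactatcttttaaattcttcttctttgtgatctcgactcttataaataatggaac
AATP1: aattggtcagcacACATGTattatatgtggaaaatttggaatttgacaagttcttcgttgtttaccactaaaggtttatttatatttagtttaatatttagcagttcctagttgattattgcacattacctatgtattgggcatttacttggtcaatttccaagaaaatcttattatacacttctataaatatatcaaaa
HIPP21: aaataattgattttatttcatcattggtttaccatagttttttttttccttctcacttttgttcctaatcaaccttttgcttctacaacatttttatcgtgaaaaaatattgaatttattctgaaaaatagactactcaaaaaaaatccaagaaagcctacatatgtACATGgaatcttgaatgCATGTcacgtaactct
The *QQS* window held 1 match, those of *AATP1* and *HIPP21* held 2 each, and that of *BGLU25* held 0. Over all tested genes with such a window, 28.1% (5613 of 19945) held a match. The share was 27.3% among genes higher in every OX library and 27.2% among genes lower in every OX library. Of the 7 called genes, 1 window held a match, that of *QQS*. The 4 windows shown do not represent the 23 genes that were called or had the clearest separation, since every window with 2 matches is among the 4. A match is a description of these letters, not a binding site.

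The 6 libraries held 16238591 to 16807682 fragments on genes, read back from the FPKM values. Correlations between libraries on the log2 scale were 0.964 to 0.969 within WT Al, 0.969 to 0.983 within OX Al and 0.957 to 0.973 between the groups. All 10 root marker genes were above 0 in every Al library, with a summed level of 107.9 to 153.0 FPKM in WT and at 98.4 to 117.0 FPKM in OX roots. Photosystem and antenna genes, which mark green tissue, summed to 344.5, 1517.6 and 1258.1 FPKM in the WT Al libraries and to 481.5, 584.7 and 487.3 FPKM in OX Al. WT Al replicate 1 thus lay below all OX libraries in these genes, whereas replicates 2 and 3 lay above them. Of 17 shoot marker genes, 6, 1 and 1 were at 0 FPKM in WT Al replicates 1 to 3, and 6, 3 and 5 in OX Al. Their mean log2 level was -0.06, 0.79 and 0.54 in WT Al and 0.05, 0.15 and 0.12 in OX Al. Their summed level was 47.6, 69.3 and 60.8 FPKM in WT Al and 63.1, 67.6 and 91.8 FPKM in OX Al. The part of the green tissue and shoot markers in the results was not tested. Differences in the cells or tissue sampled and in RNA per cell cannot be told apart.

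The difference between the genotypes also varied with gene length. With the tested genes cut into 10 bins by length, in the shortest bin (22 to 844 bp), 20.2% of genes had all OX libraries above all WT libraries and 2.43% had them all below. In the longest bin (3173 to 16614 bp), 0.944% were higher and 29.6% were lower. All 3 OX libraries stood above 0 for the shortest genes and below 0 for the longest, and the 3 WT libraries did the reverse. Without Al the same shares were 4.15% and 5.35% for the shortest bin and 3.29% and 1.94% for the longest. For the gene groups below, medians and counts are therefore also given after centring every library on genes of similar length, a step chosen after seeing the data.

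**Figure D1:**
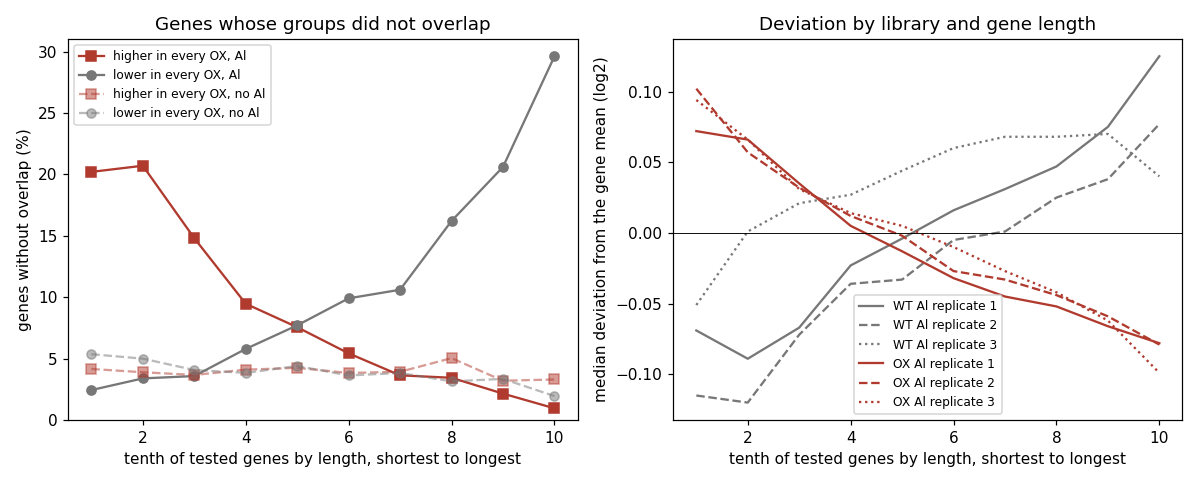
Left, the percentage of genes whose OX libraries all lay above or all lay below the WT libraries, by bin of gene length (1 shortest, 10 longest), with Al (solid) and without (dashed). Right, the median deviation from the gene mean (log2) per Al library. Under Al the share of higher genes fell from 20.2% in the shortest bin to 0.944% in the longest while the share of lower genes went from 2.43% to 29.6%.

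Under Al, 7 genes were called higher in OX than in WT roots (a difference of 1 or more on the log2 scale with an adjusted p no larger than 0.05), which is 0.0348% of those tested. No gene was called lower (0% of those tested, limma), nor was any with voom on the recovered fragments. That absence depended on the setting. There was 1 lower call without a filter, 1 with quantile normalization, 1 without the variance trend and 1 without WT Al replicate 1. The fit to all 12 libraries gave 2. In the main fit 1302 genes had an unadjusted p under 0.05 and a lower OX mean, and 1322 had a higher one. By a looser count, 1777 genes (8.83%) had all OX libraries above all WT libraries, and 2208 (11.0%) had them all below. After the centring on gene length these counts were 1611 (8.01%) and 1372 (6.82%). The median log2 fold change of all genes was -0.03. The 7 called genes include an orphan gene, a noncoding RNA, and genes for a β-glucosidase, a cytochrome P450, a cell wall peroxidase and a pair of little-studied proteins. None of them is among the photosynthesis genes or the genes that the study listed as regulated by GmNTL4 under Al.

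The largest fold belonged to *AT2G01422*, a noncoding RNA (chromosome 2, 183940 to 184734, + strand). Its level was 0.0749, 0.524 and 0.300 FPKM in WT Al replicates 1 to 3 and 8.41, 10.1 and 11.5 FPKM in OX Al replicates 1 to 3. In fragments these were 1, 7 and 4 against 111, 131 and 151, a ratio of 33.4 (95% exact interval 18.9 to 65.3, for counting error only). It was thus nearly silent in WT roots and measured in every OX library, and the fitted log2 difference was 3.75 (SE 0.25, adjusted p = 0.00691). Its OX libraries met the filter of 0.5 FPKM in 3 libraries, whereas its WT libraries alone would not have. The call held in 3 of the 6 fits that left out 1 library, with adjusted p from 0.0282 to 0.12.

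*QQS* (*AT3G30720*, chromosome 3, 12349047 to 12349933, + strand) is an orphan gene known to shift allocation between starch and protein. WT Al libraries held 1.56, 1.65 and 2.34 FPKM (1.85 ± 0.428, SD, n = 3), and OX Al libraries held 16.3, 18.7 and 18.8 FPKM (17.9 ± 1.41, SD, n = 3). The groups were far apart relative to the spread within each. The fitted log2 difference was 2.99 (SE 0.16, adjusted p = 0.00637), and the call held in 4 of the 6 fits with 1 library left out.

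*BGLU25* (*AT3G03640*, chromosome 3, 880988 to 884157, + strand), a member of the β-glucosidase family that splits glucose from glycosides, was the most abundant of the 7. It was at 57.1, 66.9 and 62.3 FPKM in WT Al roots and at 168, 167 and 157 FPKM in OX Al roots. The means were 62.1 ± 4.88 and 164 ± 5.91 FPKM (SD, n = 3 each), which is 1.39 on the log2 scale (SE 0.09, adjusted p = 0.00691). Fitted with all 12 libraries, whose control roots varied more, its adjusted p was 0.322. It overlaps *EDA5* on the other strand by 25 bp, and whether counting used the strand is not given in the sources used here.

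*CYP96A12* (*AT4G39510*, chromosome 4, 18368685 to 18370698, - strand) encodes a cytochrome P450 of the family that includes the alkane hydroxylase of wax synthesis. Its values were 9.05, 8.0 and 7.45 FPKM in WT and at 19.2, 24.2 and 22.5 FPKM in OX Al roots. The lowest OX library was above the highest WT library by more than the spread within either group. The difference was 1.37 on the log2 scale (SE 0.13, adjusted p = 0.0328). With all 12 libraries the adjusted p was 0.194.

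A secreted class III peroxidase, *AT5G47000* (chromosome 5, 19068803 to 19070333, - strand), belongs to a family whose members cross-link wall polymers with hydrogen peroxide. It stood at 13.7, 15.8 and 15.4 FPKM in WT Al and at 34.3, 33.4 and 32.3 FPKM in OX Al libraries. OX libraries differed from each other by less than WT libraries did. The rise was 1.13 on the log2 scale (SE 0.09, adjusted p = 0.0174), and with all 12 libraries the adjusted p was 0.617.

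The remaining called genes are small or of little-known function. *AT5G04080* (chromosome 5, 1104524 to 1105398, + strand) is annotated as a stress tolerance protein with a cysteine-rich transmembrane module. Its levels were 15.4, 13.8 and 14 FPKM in WT and at 40.8, 37.3 and 40.1 FPKM in OX Al roots, a rise of 1.42 on the log2 scale (SE 0.09, adjusted p = 0.00691). *AT5G13880* (chromosome 5, 4477242 to 4478306, - strand), annotated as a cotton fiber protein, was at 1.90, 2.18 and 1.68 FPKM in WT and at 6.39, 8.09 and 8.69 FPKM in OX Al roots. Its log2 fold change was 1.76 (SE 0.17, adjusted p = 0.0394), and the call was lost after centring on gene length (adjusted p = 0.0676) and without the filter on low values (0.0743). With each library left out in turn, neither *AT5G13880* nor *AT5G47000* was called in any of the 6 fits, *CYP96A12* was called in 1, *BGLU25* in 2 and *AT5G04080* in 3.

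The genes beside the called genes are given as description only, since genes picked for a large difference will exceed those beside them. Of the 14 nearest tested neighbours, 1 was higher in every OX library (*XTH5*, beside *AT5G13880*, named after its values were seen, with a log2 fold change of 0.23). None was lower in every OX library, and the neighbours ranged from -0.48 to 0.23. Over all tested genes the shares were 8.83% higher and 11.0% lower.

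**Figure D2:**
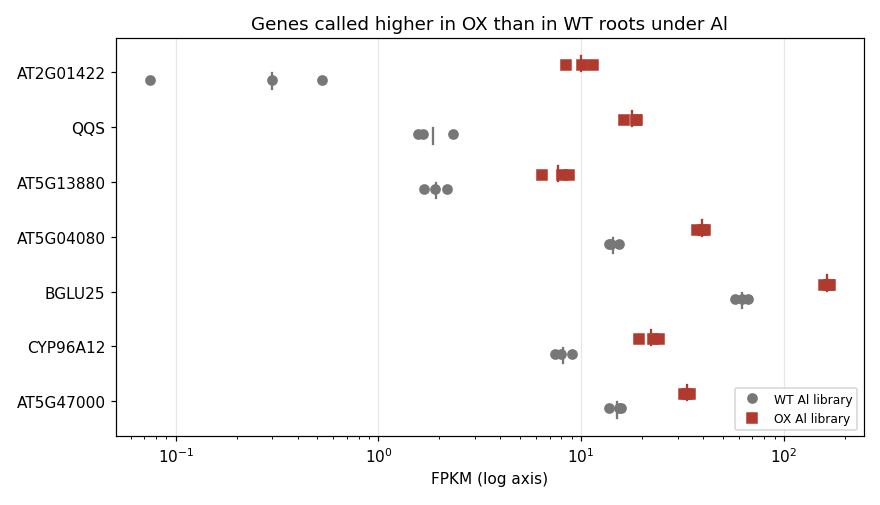
FPKM (log axis) of the 7 called genes in the 3 WT Al libraries (grey circles) and the 3 OX Al libraries (red squares), with a short line at each group mean. No OX library overlapped a WT library; *AT2G01422* and *QQS* show the widest gaps, with the highest WT library at 0.524 and 2.34 FPKM and the lowest OX library at 8.41 and 16.3 FPKM.

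Below the calls, 8 genes with the clearest separation on the higher side were of varied annotation. *GSTU8*, a tau-class glutathione transferase that couples glutathione to toxic compounds, stood at 25.1, 25.4 and 26.5 FPKM in WT and at 46.1, 44.3 and 46.8 FPKM in OX Al roots. Its adjusted p was 0.0328, but its log2 fold change of 0.82 (SE 0.08) was under the limit for a call. The related *GSTU22*, chosen after its values were seen, was at 17.3, 16.2 and 18.5 FPKM in WT and at 60.9, 39.8 and 35.7 FPKM in OX Al roots (log2 fold change 1.33, adjusted p = 0.147). The OX libraries of *GSTU22* were more spread than those of *GSTU8*, though no value overlapped.

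*DREB2C*, a transcription factor of drought and heat responses, was at 8.52, 8.25 and 7.62 FPKM in WT and at 18.9, 18.5 and 15.7 FPKM in OX Al roots (log2 fold change 1.07, adjusted p = 0.0556). *PP2-B1*, annotated as a phloem protein of the lectin type, was at 20.7, 26.5 and 20.7 against 46.6, 49.6 and 48.8 FPKM (1.09, adjusted p = 0.0556). Both missed the threshold in the main fit. With 1 library left out, *DREB2C* passed an adjusted p of 0.05 in 0 of the 6 fits and *PP2-B1* in 1. The adjusted p there reached 0.466 for both (limma). After centring on gene length it was 0.0454 for *DREB2C* and 0.0771 for *PP2-B1* (limma). *AATP1*, an AAA-type ATPase, was at 35.4, 36.0 and 31.9 FPKM in WT and at 104, 89.6 and 71.5 FPKM in OX Al roots (1.33, adjusted p = 0.0583). *HIPP21*, from a family of heavy metal-associated isoprenylated proteins, was at 1.36, 0.744 and 1.45 against 4.85, 6.50 and 5.25 FPKM (1.86, adjusted p = 0.101).

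The lipid-transfer-like gene *AT5G01870* was among the more abundant, at 67.3, 52.1 and 72.5 FPKM in WT and at 135, 156 and 160 FPKM in OX Al roots (log2 fold change 1.24, adjusted p = 0.0773). A pair of noncoding RNAs, *AT1G31258* and *AT1G11175*, completed this group with log2 fold changes of 0.75 and 0.71 (adjusted p = 0.107 and 0.117). After centring on gene length these were 0.63 and 0.53 (adjusted p = 0.331 and 0.284, limma). Further genes chosen after their values were seen included *ALS3*, a membrane protein required for Al tolerance, at 44.5, 38.4 and 33.9 FPKM in WT and at 63.5, 83.6 and 72.4 FPKM in OX Al roots (0.90, adjusted p = 0.155). Also in that group, *PMZ*, a stress-associated zinc finger gene, was at 45.6, 65.4 and 36.5 against 117, 127 and 112 FPKM (1.3, adjusted p = 0.155). Neither gene had overlapping groups, and neither passed the test.

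On the lower side, *AT2G41810*, which encodes a protein of a cell wall-associated family with a DUF642 domain, had the largest fitted fold change of the 8 genes chosen by rule. It stood at 5.51, 3.22 and 7.53 FPKM in WT Al and at 0.131, 0.0445 and 0.350 FPKM in OX Al roots (log2 fold change -3.09, SE 0.33, adjusted p = 0.0556). The OX libraries held 3, 1 and 8 fragments, and the WT to OX ratio of summed fragments was 30.8 (95% exact interval 17.5 to 60.2, counting error only). Without Al this gene varied widely within both genotypes, and the groups overlapped. It was then at 11.4, 0.254 and 0.564 FPKM in WT and at 4.17, 0.313 and 0.0436 FPKM in OX roots. Also nearly silent in OX Al roots was *MEE65*, annotated as a TBP-binding protein of the Brf1 type and chosen after its values were seen. It was at 1.38, 2.13 and 1.73 FPKM in WT Al and listed at 0, 0 and 0.0509 FPKM in OX Al roots. In fragments this was 55, 85 and 69 against 0, 0 and 2, a ratio of 102 (95% exact interval 28.0 to 851, counting error only). The adjusted p of *MEE65* was 0.0624 (limma). *AT2G41810* and *MEE65* passed the filter of 0.5 FPKM in 3 libraries only through WT, the group where they were high. Across the alternative limma fits the adjusted p of *MEE65* ranged from 0.00506 to 0.466. It overlaps *RPI2* on the other strand by 476 bp, and *RPI2* was at 2.57 to 4.11 FPKM in WT and at 2.71 to 3.78 FPKM in OX Al roots.

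A chitinase family gene, *AT2G43620*, was at 13.4, 14.6 and 25.7 FPKM in WT Al and at 3.63, 5.58 and 5.64 FPKM in OX Al roots (log2 fold change -1.72, adjusted p = 0.155). *HEI10*, known for its role in meiotic crossovers, was at 7.35, 10.5 and 7.03 against 3.13, 2.62 and 2.39 FPKM (-1.44, adjusted p = 0.13). Across the alternative limma fits its adjusted p ranged from 0.0397 to 0.587. It overlaps *MRD1* on the other strand by 1446 bp, and *MRD1* was at 0.05 FPKM or less in all Al libraries. Neither *AT2G43620* nor *HEI10* passed the main test, although their groups were apart. *NPH3*, a signalling partner of the blue-light receptor phototropin, was at 13.6, 13.2 and 13 FPKM in WT Al and at 7.25, 8.16 and 6.77 FPKM in OX Al roots (-0.80, adjusted p = 0.135). *RD28*, a plasma membrane aquaporin, was at 46.7, 45.8 and 41.5 against 30.6, 30.7 and 26.7 FPKM (-0.60, adjusted p = 0.155).

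The long noncoding RNA *AT3G05945*, the membrane transporter gene *AT2G16660* of the major facilitator type and *AT4G01350*, a C1-domain gene, made up the rest of the lower side, with log2 fold changes of -1.74, -0.65 and -0.77 and adjusted p = 0.13, 0.155 and 0.155. After centring on gene length they were -1.9, -0.51 and -0.69 (adjusted p = 0.101, 0.291 and 0.291, limma). None of these genes was called. Over the whole table, 99 higher and 58 lower genes had groups without overlap that differed by 1 or more on the log2 scale.

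**Figure D3:**
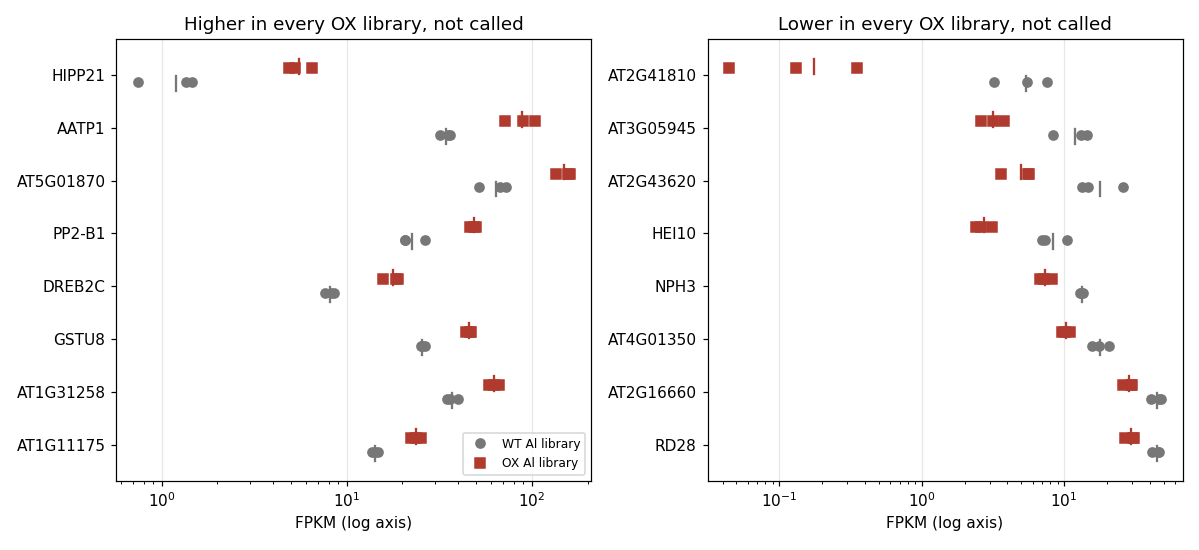
FPKM (log axis) in WT Al (grey circles) and OX Al (red squares) libraries, with a short line at each group mean, for the 8 higher (left) and 8 lower (right) genes with groups apart and the smallest unadjusted p outside the called genes. Separation is complete in each gene, and the lowest values are those of *AT2G41810*, where OX libraries lay at 0.0445 to 0.350 FPKM.

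The functional groups were then described by how many tested members had every OX library above, or below, every WT library, against 8.83% and 11.0% of all genes, and by their median log2 fold change, against -0.03. Apart from *CYP96A12* in the P450 family, no member of any of them was called. Members named below therefore did not pass the test singly, unless stated.

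Sulfur assimilation and sulfur-starvation genes were among the groups that lay higher in OX roots. Of 19 tested members, 7 (36.8%) were higher in every OX library and 0 were lower, with a median of 0.38 (0.48 after centring on gene length, then with 10 higher). Of the 19, 17 had a positive fold change. *LSU2*, a small protein induced by low sulfur, was at 8.75, 5.78 and 6.08 FPKM in WT Al and at 18.8, 15.3 and 12.2 FPKM in OX Al roots (log2 fold change 1.11, adjusted p = 0.179). The lowest OX library was thus above the highest WT library. *AT5G26220*, a ChaC-like gene of the glutathione-degrading type, was at 0.830, 0.195 and 1.12 against 3.16, 2.52 and 4.56 FPKM (1.74, adjusted p = 0.209).

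*APR3*, *APR2* and *SULTR4;2*, named after their values were seen, belong to the same list. *APR3* encodes an enzyme that reduces activated sulfate, and was at 39.9, 27.7 and 33.8 FPKM in WT and at 64.0, 50.4 and 49.3 FPKM in OX Al roots (0.69). *APR2*, of the same function, had a log2 fold change of 0.53, and *SULTR4;2*, which releases sulfate from the vacuole, one of 0.38. Both had groups apart. The root uptake transporter *SULTR1;1*, also named after its values were seen, had the opposite sign in its means, at 1.19, 0.681 and 0.833 against 1.3, 0.209 and 0.410 FPKM (-0.40), with overlapping groups. The only other negative member, *SULTR1;2*, named likewise, was at 64.5, 75.5 and 64.6 against 108, 38.4 and 42.8 FPKM (-0.27), also with overlap. Among the starvation markers outside the naming rule, *SDI1* was at 2.01, 0.931 and 1.32 FPKM in WT and at 12.5, 3.80 and 3.89 FPKM in OX Al roots (1.74, adjusted p = 0.268). OX Al replicate 1 was the highest library of *SDI1*, and it also had the highest mean deviation over the sulfur list, at 0.585 against 0.202 and 0.197 in the other OX libraries. Leaving out each library in turn kept the median of the list between 0.38 and 0.54.

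Autophagy genes, whose products enclose cell components and deliver them to the vacuole, lay higher in 13 of 28 tested members (46.4%) and lower in 2 (7.14%), with a median of 0.25 (0.29 with 9 higher and 0 lower after centring on gene length). The *ATG8* genes, which encode the ubiquitin-like protein that is coupled to the autophagic membrane, made up much of this count, and 8 of 9 were higher in every OX library, with log2 fold changes from 0.34 to 0.84. Their summed level was 533.0, 656.0 and 496.0 FPKM in WT Al and 701.0, 846.0 and 804.0 FPKM in OX Al libraries. *ATG8D* was at 42.9, 47.2 and 37.6 FPKM in WT and at 67.3, 83.6 and 78.4 FPKM in OX Al roots (0.84, adjusted p = 0.147). *ATG8C* differed less, at 24.4, 28.3 and 24.0 against 32.3, 37.4 and 31.4 FPKM (0.39, adjusted p = 0.282). The other 19 autophagy genes had 5 members higher, 2 lower and a median of 0.16. *ATG8* genes are short (median length 992 bp), and after centring on gene length their median was 0.35 and 4 of them, not 8, were higher in every OX library.

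Genes of the cytosolic ribosome formed the largest list. Of 272 tested ribosomal protein genes, 103 (37.9%) were higher in every OX library and 4 (1.47%) were lower, and the median was 0.22. *AT3G08520*, which encodes the large-subunit protein L41, was at 37.8, 47.6 and 51.1 FPKM in WT Al and at 87.4, 77.3 and 77.2 FPKM in OX Al roots (log2 fold change 0.83, adjusted p = 0.155). *AT4G33865*, which encodes a small-subunit protein of the S29 type, was at 60.1, 60.2 and 64.1 against 96.8, 84.1 and 89.6 FPKM (0.55, adjusted p = 0.155). These genes are short too (median length 1016 bp). Centring on gene length brought the median to 0.10, with 54 members higher and 9 lower. Near-identical ribosomal genes share sequence, so values of single members are uncertain.

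Heat shock genes, mostly chaperones, had the highest median of all lists, 0.51 over 19 tested members, but only 1 was higher in every OX library. *HSP21*, a chloroplast chaperone, was at 1.09, 2.12 and 0.908 FPKM in WT and at 3.0, 4.26 and 6.09 FPKM in OX Al roots (log2 fold change 1.41, adjusted p = 0.228). *MBF1C*, a heat-induced coactivator, was at 47.5, 38.9 and 17.9 against 105, 61.7 and 43.1 FPKM (1.01, adjusted p = 0.384), with overlapping groups. WT Al replicate 3 was the lowest library of the list (mean deviation -0.833), and without it the median was 0.17. After centring on gene length the median was 0.60, with 3 members higher.

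Hypoxia genes, only some of which act in fermentation, had a median of 0.28 over 14 members, of which 2 were higher in every OX library. *ADH1*, the alcohol dehydrogenase of fermentation, was at 13.9, 16.7 and 8.88 FPKM in WT Al and at 40.6, 30.1 and 21.5 FPKM in OX Al roots (1.19, adjusted p = 0.249). *SUS4*, a sucrose synthase, was at 2.46, 2.32 and 3.80 against 9.46, 5.89 and 4.02 FPKM (1.0, adjusted p = 0.308). OX Al replicate 1 was highest in both genes, and the median ranged from 0.07, without that library, to 0.45, without WT Al replicate 3. It was 0.23 after centring on gene length. Peptide hormone genes of the CLE and RALF families had 5 of 23 members higher and 0 lower, with a median of 0.19. They too are short (median 913 bp), and after centring the median was 0.09, with 5 higher and 1 lower. Leaving out 1 library moved it between 0.10 and 0.26. *CLE26* was at 1.65, 0.899 and 1.25 FPKM in WT and at 2.50, 2.43 and 3.36 FPKM in OX Al roots (0.90, adjusted p = 0.262).

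Several lists had members apart in both directions around a median near 0. Among UMAMIT genes, which encode exporters of amino acids, 5 of 33 were higher and 2 lower, with a median of -0.04 (6 higher, 2 lower and -0.02 after centring on gene length; 0.07 without WT Al replicate 3). *UMAMIT29* was at 4.35, 5.18 and 5.50 FPKM in WT Al and at 9.39, 12.9 and 13.6 FPKM in OX Al roots (1.17, adjusted p = 0.147). *UMAMIT36* was at 0.612, 0.828 and 1.26 against 4.08, 2.64 and 3.81 FPKM (1.53, adjusted p = 0.155). In contrast *UMAMIT34*, named after its values were seen, was at 2.32, 2.50 and 2.04 against 1.55, 0.670 and 0.376 FPKM (-1.12).

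Metal transport genes likewise divided, with 5 of 27 higher, 3 lower and a median of 0.05 (4 higher, 2 lower and 0.13 after centring on gene length). *CCH*, a copper chaperone, was at 20.6, 34.6 and 36.5 FPKM in WT and at 62.9, 50 and 59.8 FPKM in OX Al roots (0.94, adjusted p = 0.239). *IRT3*, a zinc and iron transporter, was at 59.4, 53.2 and 48.2 against 78.4, 78.5 and 68.8 FPKM (0.49, adjusted p = 0.225). *ZIP9*, another zinc transporter named after its values were seen, had a log2 fold change of -0.74 with every OX library below WT.

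Of 28 antioxidant enzyme genes, 5 were higher, 1 was lower, and the median was 0.07, which became about 0 with quantile normalization. Centred on gene length, the counts were 3 and 2 and the median 0.02. *GPX2* and *DHAR2*, which reduce peroxides and oxidized ascorbate, had log2 fold changes of 0.47 (adjusted p = 0.307) and 0.38 (adjusted p = 0.313). *FSD1*, an iron superoxide dismutase named after its values were seen, was at 3.99, 15.2 and 14.5 FPKM in WT and at 20, 24.9 and 26.7 FPKM in OX Al roots, where WT replicate 1 stood well below the other libraries. The NAC factors of Arabidopsis itself had 7 of 69 members higher, 4 lower and a median of 0.08 (8 higher, 2 lower and 0.09 after centring on gene length). The most separated was *NAC095*, at 0, 0.404 and 0.673 FPKM in WT and at 2.04, 3.90 and 2.33 FPKM in OX Al roots (adjusted p = 0.184). *ANAC087*, a regulator of programmed cell death in the root cap, was at 31.6, 39.8 and 31.6 against 47.8, 65.5 and 60.2 FPKM (0.74, adjusted p = 0.196).

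Abscisic acid and drought genes had 3 of 24 members higher, 1 lower and a median of 0.13. Centred on gene length, 1 member was higher and 1 lower, with a median of 0.26, and leaving out 1 library moved the median between 0.03 (OX Al replicate 2 left out) and 0.24 (OX Al replicate 1 left out). *LTI30*, a dehydrin, was at 70.0, 60.9 and 53.0 FPKM in WT and at 77.0, 105 and 87.7 FPKM in OX Al roots (0.54, adjusted p = 0.281). *CYP707A3*, which degrades abscisic acid and was named after its values were seen, had WT values of 7.14, 5.07 and 34.1 FPKM and OX values of 4.66, 3.50 and 3.50 FPKM. Its large WT mean came from replicate 3 alone.

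Cell wall protein genes had negative medians. Extensins and proline-rich proteins, structural glycoproteins of the wall, had a median of -0.42 over 22 tested members (-0.31 after centring on gene length). Of these, 20 had a negative fold change and 3 were lower in every OX library, a share near the 11.0% of all genes. After the centring, 0 members were lower and 1 was higher in every OX library. *EXT3*, an extensin needed to assemble the new wall between dividing cells, was at 790, 501 and 896 FPKM in WT Al and at 513, 310 and 392 FPKM in OX Al roots (-0.84, adjusted p = 0.321), so that WT replicate 2 fell among the OX values. *LRX2*, a leucine-rich repeat extensin of root hairs, was at 9.33, 6.40 and 11.3 against 3.67, 4.43 and 6.18 FPKM (-0.85, adjusted p = 0.298). Leaving out each library kept the median of the list between -0.52 and -0.37.

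Expansins, which loosen the wall for growth, had a median of -0.37 over 22 members, with 1 higher and 2 lower in every OX library (1 and 3 after centring on gene length, median -0.40). WT Al replicate 3 was the highest library of the list (mean deviation 0.421), and without it the median was -0.19. *EXPA12* was at 1.34, 1.59 and 2.57 FPKM in WT Al and at 0.624, 0.319 and 0.888 FPKM in OX Al roots (-1.07, adjusted p = 0.282). The exception was *EXLB1*, an expansin-like gene, at 37.7, 39.9 and 32.4 against 55.8, 67.5 and 56.8 FPKM (0.70, adjusted p = 0.164). Arabinogalactan proteins had a median of -0.17 over 35 members and 1 gene apart in each direction (1 higher, 4 lower and -0.25 after centring on gene length). Their median was -0.33 with WT Al replicate 2 left out and -0.07 with OX Al replicate 1 left out. *FLA9*, a fasciclin-like member, was at 39.0, 36.1 and 57.2 FPKM in WT and at 27.5, 21.1 and 21.2 FPKM in OX Al roots (-0.89, adjusted p = 0.222). *AGP22* went the other way in its means, at 6.47, 4.39 and 8.71 against 9.79, 14.2 and 14.2 FPKM (0.94, adjusted p = 0.281). Root markers themselves had a median of -0.33, with 3 of 10 lower in every OX library (also after centring on gene length) and leave-one-out medians from -0.38 to -0.21. *SCR*, the endodermis regulator, was at 21.0, 18.5 and 21.5 against 15.7, 16.7 and 15.5 FPKM (-0.33, adjusted p = 0.282).

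WRKY factors, which act in defence, had 11 of 62 members (17.7%) lower and 3 higher in every OX library, with a median of -0.16. After centring on gene length 7 were lower, 3 were higher and the median was -0.12, and without WT Al replicate 3 the median was -0.08. *WRKY72* was at 51.6, 57.4 and 77.5 FPKM in WT Al and at 45.2, 34.7 and 34.6 FPKM in OX Al roots (-0.69, adjusted p = 0.264). *WRKY27* was at 11.2, 13 and 11 against 9.03, 7.16 and 6.92 FPKM (-0.59, adjusted p = 0.239). In the salicylate and immunity list 0 of 23 members were higher and 1 was lower, *WRKY70* (-0.39, adjusted p = 0.302). Its median of -0.25 moved to 0.02 without WT Al replicate 3, the library with the highest mean deviation (0.688). After centring on gene length 1 member was higher and 1 lower (median -0.18). Cysteine-rich receptor-like kinases had 4 of 20 members lower and 0 higher, with a median of -0.10. Centred on gene length, 1 was lower and 1 higher, with a median of 0.00, and without WT Al replicate 1 the median was -0.21.

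Cytochromes P450, which oxidize hormones, lipids and specialized metabolites, had 4 of 147 members higher, 15 lower and a median of -0.09 (7, 13 and -0.03 after centring on gene length), with *CYP96A12* as the called exception. *CYP78A8* was at 2.38, 4.18 and 3.71 FPKM in WT and at 9.43, 7.45 and 6.01 FPKM in OX Al roots (1.06, adjusted p = 0.225). UDP-glycosyltransferases had 3 of 45 members higher and 7 lower, with a median of -0.05 that turned to 0.01 with quantile normalization and without WT Al replicate 3, and was -0.01 after centring on gene length. The highest ranked were the stress-induced *UGT73B2*, at 22.6, 22.4 and 16.5 against 34.6, 35.2 and 30.4 FPKM (0.70, adjusted p = 0.195), and *UGT73B4* (0.61, adjusted p = 0.222), which shares 1866 bp with *UGT73B5* and is uncertain for that reason. ABC transporters had 6 of 94 members higher and 12 lower, with a median of -0.04, which became 11, 4 and 0.05 after centring on gene length. *ABCA7* was at 20.7, 23.9 and 23.7 FPKM in WT and at 31.8, 32.1 and 31.6 FPKM in OX Al roots (0.48, adjusted p = 0.177).

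Brassinosteroid genes had 0 of 15 members higher and 1 lower, with a median of -0.16. The counts were the same after centring on gene length but the median was -0.08, and it was -0.07 when WT Al replicate 3 was left out. The lower one was *BRI1*, the hormone receptor, at 58.7, 58.5 and 54.2 FPKM in WT Al and at 39.6, 41.7 and 41.0 FPKM in OX Al roots (-0.48, adjusted p = 0.155). Centred on gene length, its log2 fold change was -0.31 (adjusted p = 0.367, limma). Of 18 amino acid and ammonium genes, 3 were lower and 0 higher (median -0.04), whereas after centring on gene length 1 was lower and 2 were higher (median 0.03). Without WT Al replicate 2 the median was -0.17. *LHT1*, which takes up amino acids into roots, was at 26.7, 29.0 and 34.5 against 19.9, 18.9 and 14.4 FPKM (-0.75, adjusted p = 0.203). Gene silencing genes had 3 of 18 members lower, 0 higher and a median of -0.15. *DME*, a DNA demethylase, was at 20.4, 16.7 and 17.6 FPKM in WT and at 13.3, 13 and 12.1 FPKM in OX Al roots (-0.49, adjusted p = 0.225). These are long genes (median 4354 bp), and centring on gene length brought the median of the silencing list to 0.05, with 1 member lower and 2 higher.

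Other lists had at most 3 members apart in a direction. Endoplasmic reticulum folding genes had 1 of 21 members higher and 1 lower (median 0.04), jasmonate genes had 1 of 24 higher and 0 lower (0.03), and cell division genes had 1 of 22 higher and 0 lower (-0.04). Carbon starvation genes had 0 of 21 higher and 1 lower (-0.03), sucrose cleavage and sugar transport genes 2 of 19 in each direction (-0.01), and gibberellin genes 3 of 21 higher and 2 lower (0.03). Monolignol and lignin genes (20, median -0.13) and potassium and sodium transport genes (14, -0.11) had 0 members apart in either direction. Glucosinolate genes (23, median 0.13) and calcium signalling genes (19, -0.09) had 0 higher and 1 lower each, and calmodulin-like genes (12, -0.12) had 1 higher.

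After centring on gene length, the sucrose list had 3 members higher, 0 lower and a median of 0.14, the potassium list 2 higher, 1 lower and 0.00, and the calcium list 2 higher, 0 lower and 0.02. The carbon starvation list then had 1 higher, 0 lower and 0.06, the endoplasmic reticulum list 2 higher, 1 lower and 0.08, and the gibberellin list 4 higher, 2 lower and 0.08. The medians of the jasmonate, lignin, glucosinolate and calmodulin-like lists were then -0.01, -0.05, 0.17 and -0.08. With 1 library left out the medians moved from -0.18 to 0.22 (jasmonate), -0.22 to 0.30 (glucosinolates), -0.33 to 0.36 (calmodulin-like), -0.14 to 0.22 (carbon starvation) and -0.19 to 0.10 (cell division), so that these lists had no stable direction. Root triterpene genes (7) had 0 members apart and a median of -0.23, which moved to -1.14 when OX Al replicate 3 was left out and to 0.22 when OX Al replicate 1 was. Without Al their median was -1.11, with 5 of 7 lower in every OX library. The medians of the carbon starvation, sucrose, cell division and endoplasmic reticulum lists changed sign under at least 1 of the scalings.

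**Figure D4:**
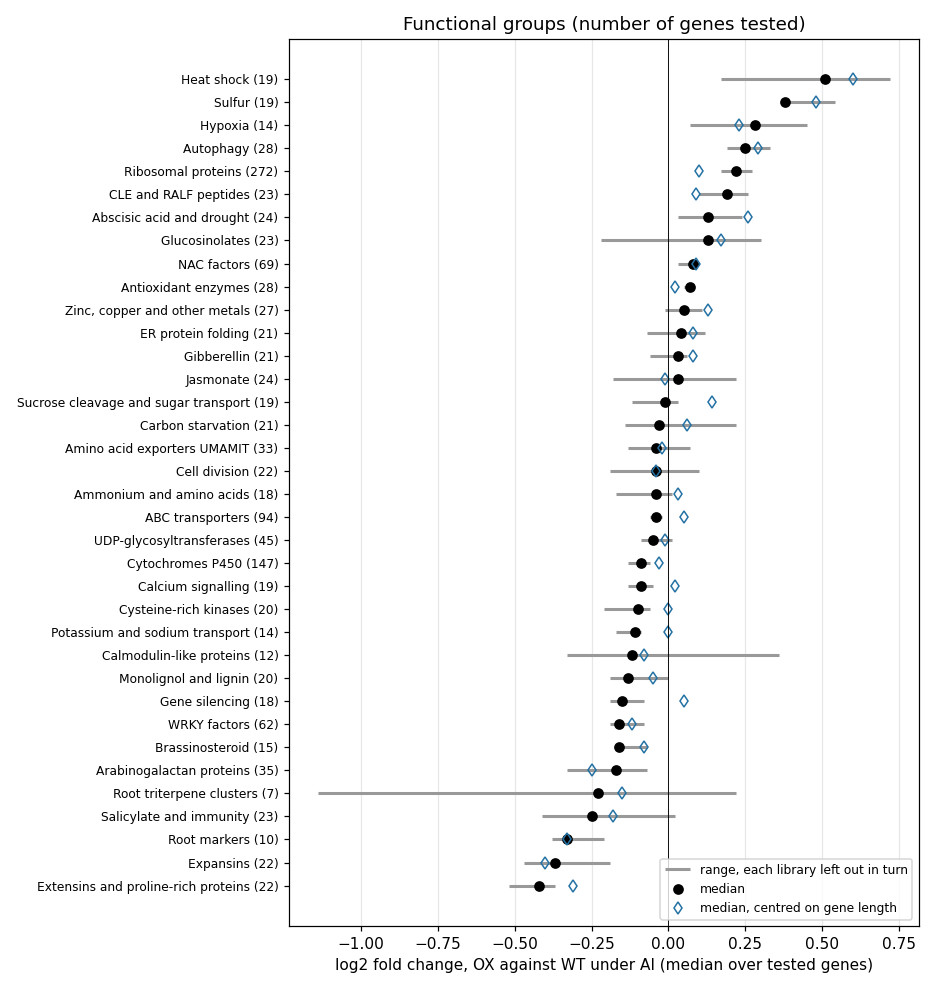
Median log2 fold change of OX against WT under Al for each functional group (number of genes tested in brackets), with the range when each of the 6 libraries was left out in turn (grey bar) and the median after centring on gene length (open diamond). Heat shock, sulfur, hypoxia, autophagy and ribosomal genes lay on the higher side, at 0.51, 0.38, 0.28, 0.25 and 0.22, and extensins and expansins on the lower side, at -0.42 and -0.37.

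The same genes were then compared in roots without Al, a comparison that shares no library with the one under Al. There 0 of 19966 genes were called in either direction (0%, limma), although 784 had an unadjusted p under 0.05 and the smallest adjusted p was 0.06, for *AT2G01422*. Every OX library was above every WT library for 3.93% of genes and below for 3.85%. Of the 23 genes that were called under Al or had the clearest separation, all 23 were tested without Al, 18 had the same direction there and 13 also had groups apart in that direction.

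*AT2G01422* had a log2 fold change of 3.14 without Al, beside 3.75 with it. *QQS* was at 1.63, 0.596 and 0.786 FPKM in WT control and at 9.0, 30.4 and 15.8 FPKM in OX control roots, a log2 fold change of 3.55 (adjusted p = 0.235). The control OX libraries of *QQS* were thus more spread than those under Al, though all were above WT. *BGLU25* had a log2 fold change of 1.66 without Al, and its OX control libraries ranged from 35.4 to 166 FPKM. For *AT5G47000*, with 0.90 without Al, the WT control libraries alone ranged from 2.50 to 45.7 FPKM.

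*AATP1*, *PP2-B1* and *DREB2C* also had higher OX means without Al, with log2 fold changes of 2.07, 1.24 and 1.0, as had *HIPP21* (1.3) and *CYP96A12* (1.53). *HEI10* and *AT3G05945* were lower without Al as well (-1.32 and -2.14), and *MEE65* too (-1.75). Other genes had small or opposite values without Al: *AT1G31258* was at -0.19, *AT1G11175* at -0.33, *NPH3* at 0.10, *AT2G16660* at 0.17 and the chitinase gene *AT2G43620* at 0.79. Whether such differences exceed the spread was tested as an interaction of genotype and Al. There 0 of 20115 genes were called (0%, limma), the smallest adjusted p was 0.919, and 1000 genes had an unadjusted p under 0.05. For *AT5G13880*, with 1.76 under Al and 0.91 without, the interaction was 0.85 (adjusted p = 0.939).

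Group medians without Al are given side by side. They were 0.60 for heat shock genes (3 higher in every OX library), 0.21 for sulfur genes (1 higher), 0.12 for autophagy genes (3 higher) and -0.07 for ribosomal genes (1 higher, 3 lower). The *ATG8* genes had a median of 0.09 without Al, with 1 of them higher in every OX library. For extensins and proline-rich proteins the median without Al was 0.50, with 7 members higher in every OX library and 0 lower, where under Al it was -0.42. Root marker genes had a median of 0.33 without Al, with 2 of 10 higher in every OX library, beside -0.33 under Al. The control libraries were uneven in these markers: WT control replicate 1 held 213.2 FPKM of root markers against 98.2 and 105.5 FPKM in the other WT control libraries, and OX control held 142.4 to 157.2 FPKM. The same library held 1121.7 FPKM of photosystem and antenna genes, against 423.0 and 310.5 FPKM in the other WT control libraries and 335.3 to 407.9 FPKM in OX control. The part of these markers in the change of the extensin median was not tested, nor was the difference between the medians with and without Al.

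**Figure D5:**
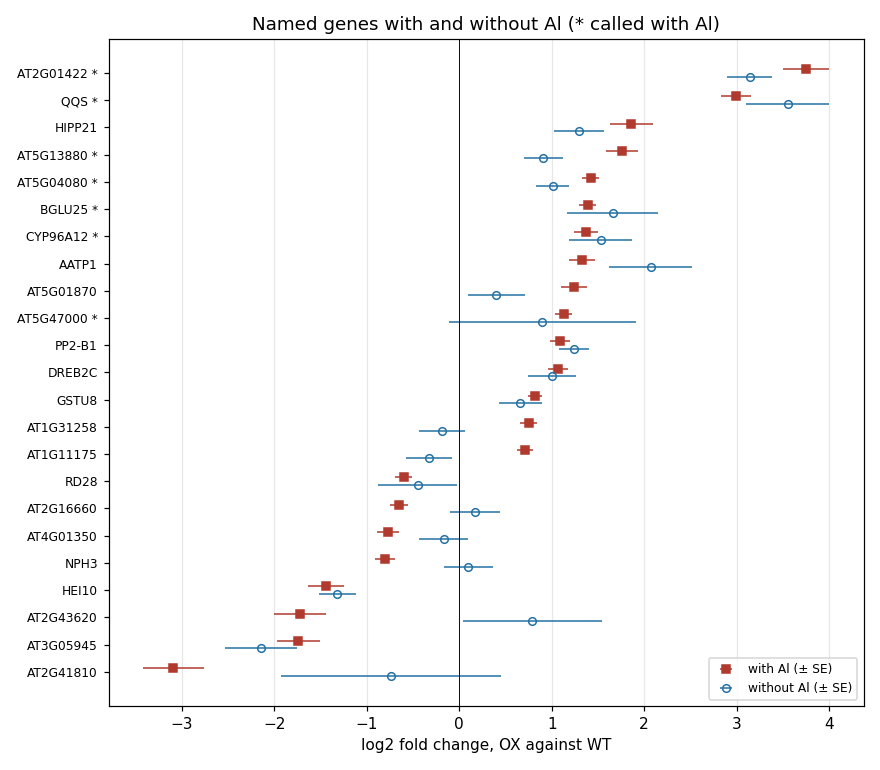
Log2 fold change of OX against WT (± SE from the fit) with Al (red squares) and without Al (open blue circles) for the 7 called genes (asterisk) and the 16 uncalled genes with the clearest separation. Points of 18 of the 23 genes lie on the same side of 0 in both comparisons, and those of *AT2G43620*, *AT1G31258*, *AT1G11175*, *NPH3* and *AT2G16660* do not.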

How the data were processed

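RNA-seq libraries of Arabidopsis roots were compared as FPKM per gene, the unit that the authors deposited. Per the labels and methods, the authors used HISAT2 to place paired reads on TAIR10 and HTSeq 0.6.0 (version from the submitters' processing notes) to count them, turned the counts into FPKM and ran DEGseq. The strand setting of the counting is not given in the sources used here. FPKM within a gene were whole multiples of a step per library (tolerance 1e-06), so fragments were read back for 100.0% of 25872 genes.

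Groups followed the genotype and treatment labels. A gene was kept when 3 or more of the 6 Al libraries had 0.5 FPKM or more, and log2(FPKM + 0.5) was fitted with limma 3.58.1 (R 4.3.3) with a variance trend. Fold changes on this scale understate those of low genes. The filter also keeps genes that are near 0 in 1 genotype and reach 0.5 FPKM only in the other. Benjamini-Hochberg adjustment covered all 20115 genes, and a call needed a log2 difference of 1 or more in either direction with adjusted p no larger than 0.05. The control libraries were fitted the same way, and the interaction of genotype and Al was fitted to all 12 libraries. Intervals for fragment ratios are exact and two-sided, at 95%. The main kind of fit was also run on simulated data. There all genes had the same spread beyond counting error and no trend with length, so that run does not check the calls made here.

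The text names every called gene. It also names the 8 higher and 8 lower uncalled genes without overlap, with a mean of at least 1 FPKM and the smallest unadjusted p. These were taken outside photosynthesis and the genes the study lists as regulated by GmNTL4 under Al. The plan also took the 2 tested members of each functional list with the smallest unadjusted p, and not all of these are described. Others are said to be chosen after their values were seen. The members and lists were chosen with earlier results of these data known. The ribosomal, extensin, autophagy and kinase lists were trimmed on their annotation after values had been seen. Of 515 hand-listed entries, 3 were dropped, and gene families were collected by annotated name. Symbols, positions and sequences are from TAIR10.1, which held 25579 of the identifiers. The alternatives were other pseudocounts, filters, scalings and fits, voom on fragments, the replicate number as a block and leaving out each library. Centring each library on gene length (running median over 2001 genes) was added after seeing the data. Summaries were made in pandas 2.3.3 (numpy 2.4.6, Python 3.11.15) and plots in matplotlib 3.10.9.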

Additional observations from a re-analysis of the deposited data

How the results depend on the processing

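The 7 genes called higher were called again with pseudocounts of 0.1 and 1, a mean of at least 1 FPKM, quantile normalization and median-ratio scaling, and 6 of them without a filter and after centring on gene length. Voom called 5 and the fit to 12 libraries called 6, of which 4 were shared. Leaving out 1 library gave 0 to 12 higher calls (0 without OX Al replicate 2 or replicate 3, 1 without WT Al replicate 3, 3 without WT Al replicate 1, 12 without OX Al replicate 1) and 0 to 1 lower calls.

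No gene was called lower, but 1 was without a filter, 1 with quantile normalization, 2 with 12 libraries and 1 without the variance trend. Genes apart in every library numbered 2362 to 3197 (higher) and 3005 to 4573 (lower) with 1 library left out, where fewer libraries make separation easier. Centring on gene length gave 1611 higher and 1372 lower, and median-ratio scaling 2167 and 1728, beside 1777 and 2208. Residuals of same-numbered WT and OX libraries correlated at -0.071, 0.178 and 0.152, and those of unlike numbers at -0.251 to 0.116. For replicates 2 and 3 the same-numbered value was above every unlike one, and for replicate 1 it was not. Whether the numbers pair the libraries is therefore not settled. With the replicate block, 0 genes were called higher. For single named genes, 1754 values under alternatives kept their direction and their side of an adjusted p of 0.05, 54 no longer passed it and 10 newly passed it. No direction reversed. Fold changes of genes near 0, such as *MEE65*, are limited by depth.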

Other observations

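Genes chosen after their values were seen add some values that belong to no list. *ANNAT7*, an annexin that binds membranes with calcium, was at 1.21, 1.12 and 1.07 FPKM in WT Al and at 3.72, 7.51 and 6.34 FPKM in OX Al roots (log2 fold change 1.91, adjusted p = 0.13, limma), beside 0.25 without Al. *WOX11*, a homeobox regulator of adventitious root founder cells (chromosome 3, 889166 to 892229), lies near *BGLU25* with *EDA5* between them. It was at 10.4, 9.37 and 8.05 against 16.6, 23.8 and 18.3 FPKM (1.03, adjusted p = 0.155), and *EDA5* was at 12.85, 8.79 and 9.11 against 7.32, 13.26 and 11.86 FPKM, with overlapping groups. The histone gene *AT1G75600* was at 3.54, 1.81 and 2.48 against 5.51, 11.5 and 11.4 FPKM (1.65, adjusted p = 0.195). *GSTU19*, an abundant tau-class glutathione transferase, was at 143, 141 and 136 FPKM in WT Al and at 226, 218 and 200 FPKM in OX Al roots (0.61, adjusted p = 0.155). All of these but *EDA5* had groups apart, and none passed the test.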
